A study of Mus musculus with 9 samples.

Results

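The AP-1 family genes described here are the 8 listed genes Jun, Junb, Jund, Fos, Fosb, Fosl1, Fosl2 and Atf3, out of 21887 protein-coding mouse genes. All 8 had at least 1 open-chromatin peak in every library. Together they held 76 of the 126907 regions formed by merging overlapping peaks of all libraries. The study used ATAC-seq, in which a transposase cuts accessible DNA, on endothelial cells sorted by FACS from mouse lung. The groups were infant, young adult and mature adult mice, with 3 libraries each, and the labels used here give no age in days, strain, sex or treatment. They do not tell whether different animals were used for each library, so a p-value here is set against the scatter among these 9 libraries alone, and that scatter may be technical. A peak counts for a gene if its centre fell within the gene, or failing that if the gene's end was the nearest one and no more than 100 kb off.

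AP-1 is a dimer of basic leucine zipper proteins that binds the sequence TGANTCA or, with ATF partners, the related TGACNTCA. Jun proteins can pair with each other or with Fos proteins, whereas Fos proteins need a Jun partner. Several of these genes are immediate-early genes, switched on by growth factors, flow, cytokines and stress through MAP kinases, and in endothelium AP-1 is known for its part in vessel growth and inflammatory activation. Accessible chromatin marks DNA that factors can reach, and it does not measure RNA.

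The 250 bases before the listed start lay fully under a peak in every library in 5 of the 7 members with a sequence in RefSeq (GRCm38.p6). This cover was not computed for the promoters of other genes, so nothing particular to AP-1 genes is read from the count. The promoters of Jun, Fos and Atf3 are shown as fully covered examples and that of Jund as the exception, 5′ to 3′ on the gene's strand. Capitals mark the motif TGACG, part of the site of CREB and ATF proteins, or the whole site TGACNTCA, on either strand.
Jun, minus strand, chr4:95052223-95052472: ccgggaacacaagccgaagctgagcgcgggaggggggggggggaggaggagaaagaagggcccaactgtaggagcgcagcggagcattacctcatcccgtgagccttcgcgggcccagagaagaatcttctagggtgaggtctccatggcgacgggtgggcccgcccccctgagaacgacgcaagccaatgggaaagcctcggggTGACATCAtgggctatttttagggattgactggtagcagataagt
Fos, plus strand, chr12:85473640-85473889: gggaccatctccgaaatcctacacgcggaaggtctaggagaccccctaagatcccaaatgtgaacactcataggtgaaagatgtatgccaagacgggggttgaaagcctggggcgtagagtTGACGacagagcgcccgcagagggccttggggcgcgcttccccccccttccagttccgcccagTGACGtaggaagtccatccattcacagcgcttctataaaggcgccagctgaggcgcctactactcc
Atf3, minus strand, chr1:191183334-191183583: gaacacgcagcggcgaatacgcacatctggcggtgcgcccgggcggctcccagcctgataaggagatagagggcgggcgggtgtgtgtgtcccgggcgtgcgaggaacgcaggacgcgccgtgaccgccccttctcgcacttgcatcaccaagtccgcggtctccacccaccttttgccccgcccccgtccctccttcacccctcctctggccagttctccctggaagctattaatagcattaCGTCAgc
Jund, plus strand, chr8:70697489-70697738: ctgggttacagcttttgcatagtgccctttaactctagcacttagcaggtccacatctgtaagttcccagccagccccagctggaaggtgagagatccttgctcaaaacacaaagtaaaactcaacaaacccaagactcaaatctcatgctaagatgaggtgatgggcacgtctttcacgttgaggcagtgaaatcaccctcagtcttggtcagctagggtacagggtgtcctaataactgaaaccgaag

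All 250 bases were covered in all 9 libraries for Jun, Fos, Fosb, Junb and Atf3. At Fosl2 they were fully covered in 7 libraries and to 66% in infant replicate 3 and mature adult replicate 1, where the peak was split. At Jund none of the 250 bases was covered in any library, and the wide peak inside the gene began 0.542 kb or more downstream of the listed start. Whether that start is the one used in these cells was not examined, so the 0% describes the listed position only. In the Jun promoter TGACATCA, a match to TGACNTCA, stood at -45 to -38, counted back from the start. The Fos promoter held TGACG at -129 to -125 and at -66 to -62 and TATAAA at -33 to -28. In the Atf3 promoter TGACG was read on the opposite strand at -7 to -3. Junb had TGACG at -106 to -102. Fosb had it at -60 to -56 from the start in the promoter table, which lies inside the gene span used for all other Fosb distances, so that this match also falls within that span. CCAAT stood at -65 to -61 in Jun and at -36 to -32 in Junb. These motifs were searched on both strands, together with TGANTCA and the CArG box of serum response factor. Within these 250 bases none of them matched in Fosl2 or Jund, and neither TGANTCA nor the CArG box matched in any of the 7. Bases farther upstream were not searched. The longer motif TGACNTCA includes TGACG where its variable base is G. Over 32851 promoters of this length, 17.8% held TGACG, 7.49% the longer motif, 6.75% the AP-1 site TGANTCA and 1.47% the CArG box. CCAAT was found in 33.8% and TATAAA in 12.4%. A match is a description of letters, not a bound site.

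The lists became shorter with age, and this bears on every count below. They held 88856 to 94646 distinct peaks in infant, 67550 to 68366 in young adult and 59793 to 64208 in mature adult libraries. Read depth is unknown, so the lack of a peak does not show closed chromatin. In bulk libraries fewer cells with an open region and less opening per cell cannot be told apart. All 8 endothelial markers had peaks in every library, with summed peaks of 180 to 191 in infant and 145 to 175 in adult libraries. The summed peaks at 7 fibroblast and mural cell markers were 48 to 51 in infant and 18 to 22 in adult libraries. Lum was at 0 throughout, and Dcn was at 0 in infant replicate 2 and all adult libraries. At 7 epithelial markers the summed peaks were 18 to 25 in infant and 7 to 13 in adult libraries, with Sftpc at 0 throughout. Krt18 and Cldn18 were at 0 in all adult and no infant libraries. At 7 leukocyte markers the summed peaks were 8 to 14 in all libraries, with Lyz2 and Itgam at 0. The part of other cell types in the differences between infant and adult libraries was not tested.

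The lists averaged 91182 peaks in infant and 62369 in mature adult libraries, and the AP-1 genes together 64.3 and 54.7. Their summed peaks were 64, 65 and 64 in infant, 59, 57 and 54 in young adult and 54, 57 and 53 in mature adult libraries. The infant values lay above all adult values, and the ranges of the adult ages overlapped. The covered length summed over the 8 genes was 42.9 ± 1.88 kb in infant, 36.6 ± 1.71 kb in young adult and 35.1 ± 1.08 kb in mature adult libraries (mean ± SD, n = 3 each). Fos and Jun had the most peaks, with a mean of 14.9 each over the 9 libraries, and Junb and Jund about the fewest, but the span from which a gene could receive peaks was also widest for Jun, at 138 kb, and narrowest for Junb, at 7.90 kb.

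**Figure D1:**
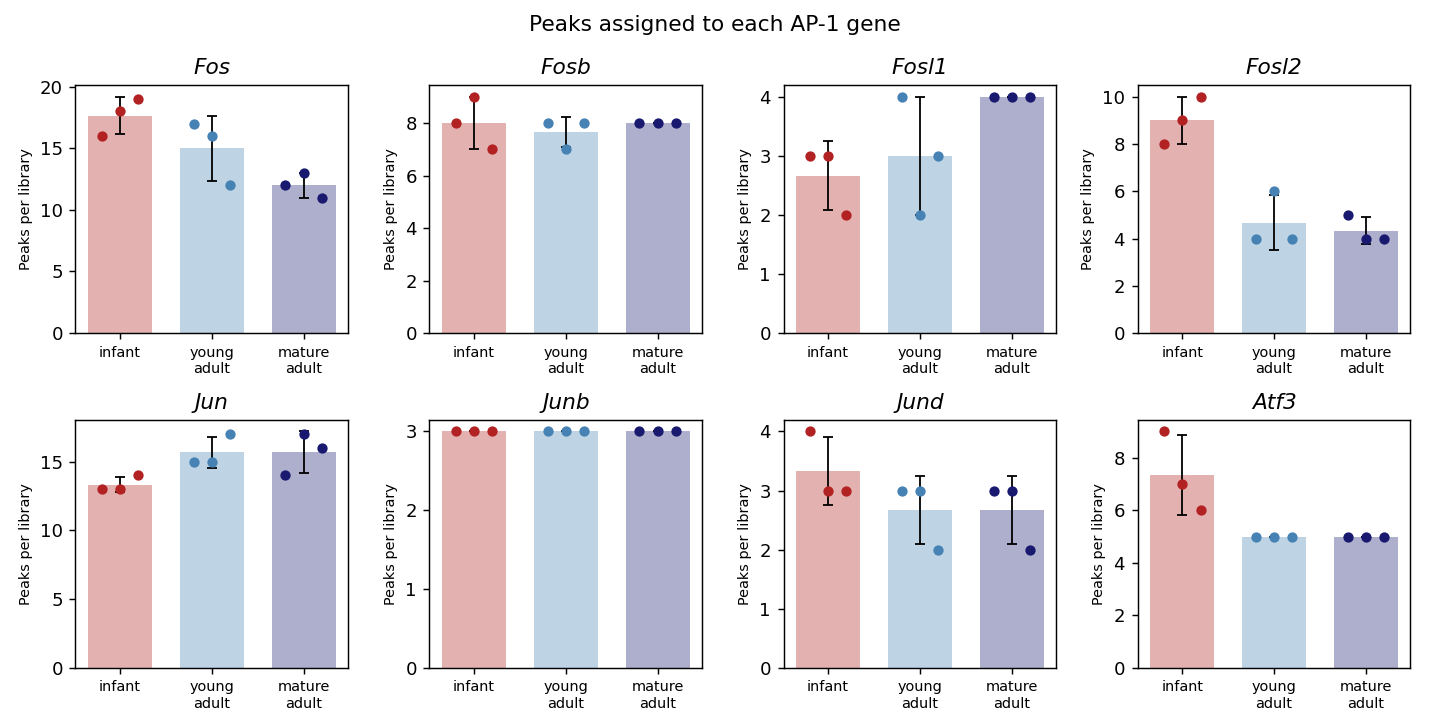
Distinct ATAC-seq peaks per library (vertical axis, number) assigned to each AP-1 gene in infant, young adult and mature adult lung endothelial cells. Bars are means, error bars are SD and points are the 3 libraries of each age; Fosl2 fell from 8 to 10 peaks in infant to 4 to 6 in adult libraries, whereas Junb had 3 in all 9.

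As a share of each library's list, 4 of the 8 genes were higher in mature adult than in infant libraries (Jun, Junb, Fosb and Fosl1) and none was lower, while 30% of the 14452 genes tested were called higher and 13.8% lower. In numbers as called, 3 of the 8 were lower (Fos, Fosl2 and Atf3) and none higher, while 29.4% of genes were called lower and 1.44% higher. No AP-1 gene passed the threshold in the same direction on both scales, which 1.44% of genes did upward and 13.8% downward. The median log2 change was 0.33 over the 8 genes and 0.14 over all genes after scaling, and -0.14 and -0.31 as called. From infant to young adult 3 of the 8 were higher as a share (background 25.6%) and 2 lower as called (background 17.5%). Between young adult and mature adult 0 of the 8 passed in limma on either scale, and 0 had an unadjusted p under 0.05. Over all genes 0.844% were called as a share and 0.927% as called, and 9.61% and 10.7% had an unadjusted p under 0.05.

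Among the Jun genes, Jun, a strong activator and the namesake of its subfamily, kept its number of peaks while the lists shrank. Jun lies at chr4:95049036-95052222 on the minus strand. It had 13, 13 and 14 peaks in infant, 15, 15 and 17 in young adult and 14, 17 and 16 in mature adult libraries. The infant and young adult values did not overlap, and the infant and mature adult values met at 14. As a share of the list Jun rose by a log2 change of 0.75 ± 0.08 (SE) from infant to mature adult (limma adjusted p = 0.000183) and by 0.63 ± 0.08 to young adult (limma adjusted p = 0.00074). As called the changes were 0.22 in both comparisons, with limma adjusted p of 0.0941 and 0.123. Its covered length was 9.11 ± 0.306 kb in infant, 8.64 ± 0.292 kb in young adult and 8.93 ± 0.892 kb in mature adult libraries. As called the change was -0.072 to young adult (limma adjusted p = 0.475) and -0.031 to mature adult (limma adjusted p = 0.748).

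Of the 18 regions at Jun, 10 had a peak in every library, 2 were found in adult libraries only and 0 in infant libraries only. A region 29.6 kb upstream (chr4:95081713-95082023) was absent from all infant lists and present in all adult lists, covering 256, 238 and 251 bp in young adult and 168, 269 and 272 bp in mature adult libraries. Another, 49.0 kb upstream (chr4:95100654-95101807), was also absent in infant and covered 360, 310 and 353 bp in young adult and 632, 430 and 950 bp in mature adult libraries. These were the only regions at AP-1 genes found in all 6 adult and no infant libraries, and the next gene, Mysm1, lay 103 and 122 kb away. Of the 76 AP-1 regions they made up 2.63%, against 0.686% of all regions.

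Farther upstream the direction was the opposite. At 54.0 kb (chr4:95105937-95106595) the widest peak measured 616, 658 and 609 bp in infant, 374, 318 and 431 bp in young adult and 269, 252 and 376 bp in mature adult libraries. All infant peaks were wider than all adult peaks. Relative to the library median the width fell by 0.80 on the log2 scale from infant to mature adult (limma adjusted p = 0.0364), and the change without that centring was -1.09 (limma adjusted p = 0.00868). The call held in 4 of 10 fits that left out libraries, with limma adjusted p from 0.0236 to 0.105. At 56.6 kb the covered length was 705, 644 and 625 bp in infant and 386, 388 and 277 bp in young adult libraries, and it was 0, 319 and 229 bp in mature adult libraries. Downstream at 14.1 kb the width was 532, 389 and 464 bp in infant, 613, 836 and 392 bp in young adult and 703, 600 and 1016 bp in mature adult libraries. It rose relative to the median by 1.01 (limma adjusted p = 0.0374), a call not made without centring. At 20.8 kb downstream the centred change was 0.27 (limma adjusted p = 0.0449) and the change without centring was -0.03. Neither downstream call held when any 1 of infant replicates 1 and 3 and mature adult replicates 1 and 3 was left out.

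**Figure D2:**
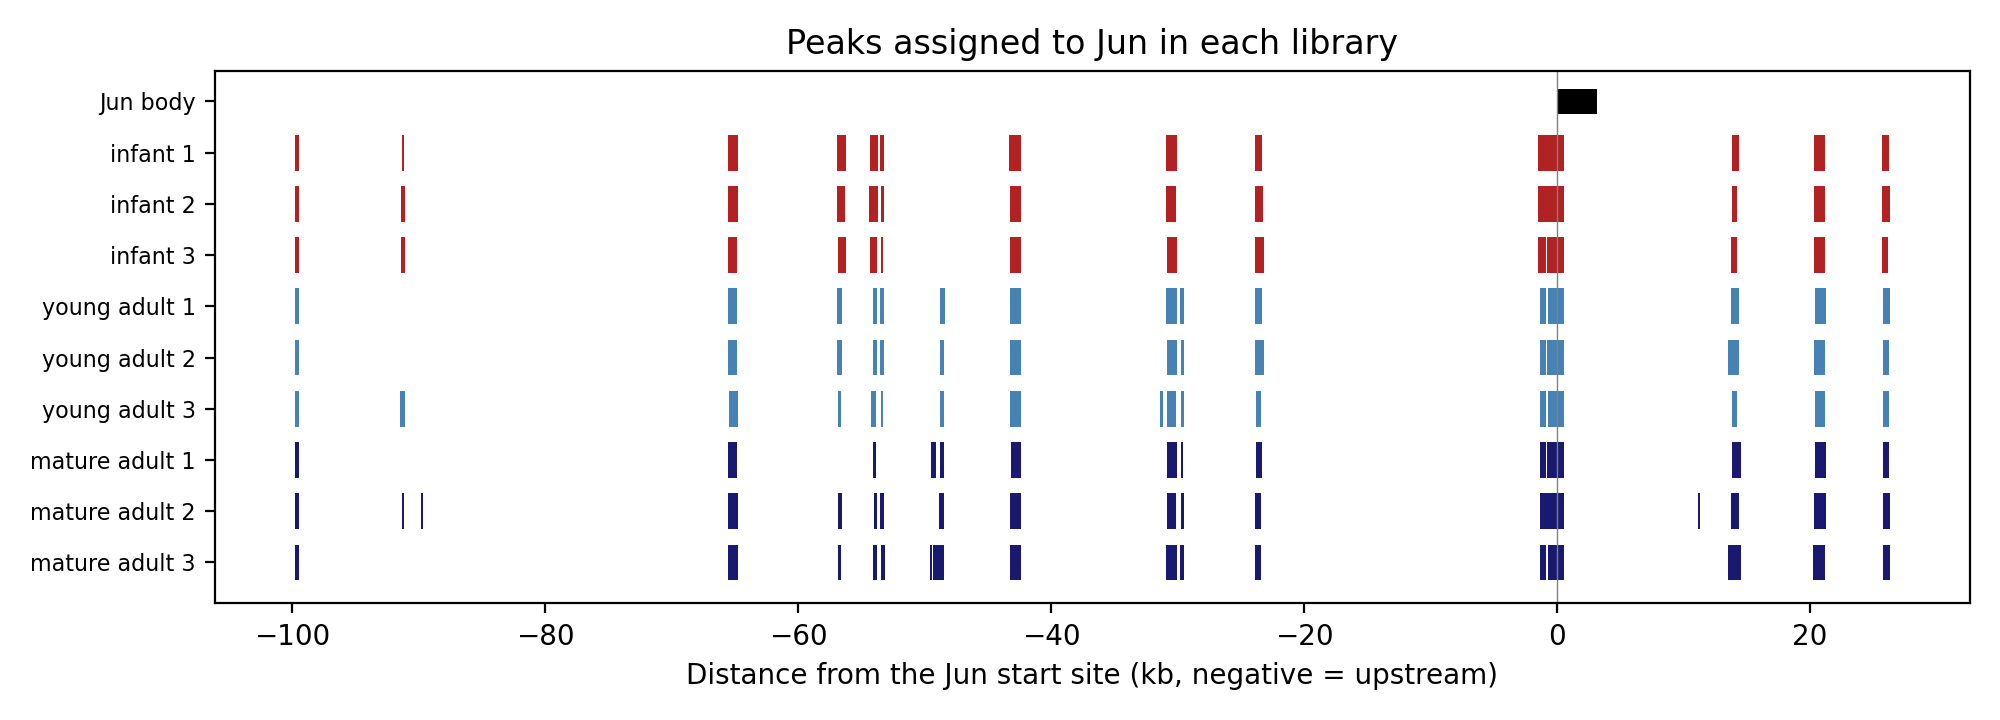
Peaks assigned to Jun in each of the 9 libraries (rows), drawn to scale against distance from the Jun start site (horizontal axis, kb, negative upstream), with the gene body in black. The regions 29.6 and 49.0 kb upstream appear in adult rows only, and the peaks 54.0 kb upstream are widest in the infant rows.

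The peak over the Jun start was present in every library, as 1 interval of 2086, 2062 and 1888 bp in infant replicates 1 and 2 and mature adult replicate 2, and as 2 intervals in the other 6. Such splitting raises a peak number without adding open DNA. Counted as merged regions, Jun had 13 in each infant library, 14, 14 and 16 in young adult and 12, 17 and 14 in mature adult libraries, and its share still rose by 0.69 in mature adult (limma adjusted p = 0.00102), where 35.7% of genes were called higher.

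Junb, an AP-1 subunit that can restrain Jun and is needed for blood vessel formation in the embryo, was the steadiest member. It lies at chr8:84976909-84978748 on the minus strand and had 3 peaks in all 9 libraries, 1 over the start and 1 on each side of the gene. Its covered length was 2.26 ± 0.108, 2.19 ± 0.0301 and 2.24 ± 0.0439 kb from infant to mature adult. Because the list shrank, its share rose by 0.47 in mature adult (limma adjusted p = 0.000376), with a change of 0 as called. The peak over the start ranged from 583 to 639 bp over the 9 libraries. It was called wider relative to the median in mature adult, by 0.33 (limma adjusted p = 0.0418), though not without centring. That call was lost when any 1 of infant replicates 1 and 3 and mature adult replicates 1 and 3 was left out.

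Jund, the subunit present in most resting cells, lies at chr8:70697739-70700616 on the plus strand. It had 4, 3 and 3 peaks in infant, 3, 3 and 2 in young adult and 3, 3 and 2 in mature adult libraries. The groups overlapped, and neither scale gave a call on the number. Its covered length was 2.20 ± 0.132 kb in infant and 2.09 ± 0.15 kb in mature adult libraries, and as a share of the library's covered length it was called higher, by 0.45 (limma adjusted p = 0.00122). Most of it lay in a region inside the gene (chr8:70698281-70700223), which covered 1661 to 1906 bp in every library.

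Of the Fos genes, Fos itself, the classical immediate-early gene, had fewer peaks with age. Fos lies at chr12:85473890-85477274 on the plus strand and had 16, 18 and 19 peaks in infant, 17, 16 and 12 in young adult and 12, 13 and 11 in mature adult libraries. All mature adult values were below all infant values, and young adult replicate 3 lay within the mature adult range. As called the number fell by 0.54 on the log2 scale from infant to mature adult (limma adjusted p = 0.0292), whereas the change of its share of the list was -0.01 (limma adjusted p = 0.96). Counting only peaks up to 10 kb from a gene, the share of Fos was higher in mature adult, by 0.60 (limma adjusted p = 0.042). That share was still taken of the whole list, which was shorter in mature adult. The regions at the start and 1.47 kb upstream each held 1 peak in every library. The region 12.5 kb past the start, 9.10 kb from the gene's end, held 1, 2 and 2 in infant and 2 in each mature adult library. The covered length was 12.3, 11.8 and 11.7 kb in infant, 9.95, 9.91 and 8.71 kb in young adult and 7.92, 8.37 and 8.09 kb in mature adult libraries, without overlap between ages. It fell by 0.53 as called (limma adjusted p = 0.000421), and after scaling the change was 0.07 (limma adjusted p = 0.253).

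The largest losses of covered length lay upstream, between about 29 and 38 kb from the start, in DNA where the next gene, Tmed10, was at least 61.7 kb away. The region 36.4 kb upstream (chr12:85437135-85437891) covered 709, 437 and 751 bp in the infant libraries and had no peak in any adult library. Its neighbour 37.5 kb upstream (chr12:85435892-85436856) covered 661, 964 and 699 bp in infant libraries and, of the adult libraries, 270 bp in young adult replicate 2 alone. At 28.9 kb upstream (chr12:85444259-85445633) every library had a peak, and the widest measured 1374, 1169 and 882 bp in infant, 664, 679 and 435 bp in young adult and 452, 451 and 305 bp in mature adult libraries.

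This last region narrowed on both scales. Every infant peak was wider than every adult peak. The width relative to the library median fell by 1.21 on the log2 scale from infant to mature adult (limma adjusted p = 0.0142), and the change without centring was -1.50 (limma adjusted p = 0.00939). It was called in 8 of 10 fits that left out libraries, with limma adjusted p from 0.0127 to 0.0555. The young adult value was -0.73 relative to infant and passed in none of those 10 fits. By contrast, the peak at the start was present in all libraries with 1007 to 1292 bp, and the regions 11.2 and 18.4 kb upstream covered 1158 to 1378 bp and 1118 to 1243 bp.

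Downstream of Fos the widths went the other way at one site. At 49.2 kb the widest peak was 466, 707 and 305 bp in infant, 871, 868 and 842 bp in young adult and 758, 770 and 796 bp in mature adult libraries. No infant value reached the adult range. The centred width rose by 1.03 in mature adult (limma adjusted p = 0.0313) and by 1.11 in young adult (limma adjusted p = 0.0429). Neither call was made without centring, or when infant replicate 1 or infant replicate 3 was left out. The mature adult call was also lost without mature adult replicate 1 or 3. The young adult call was also lost without any 1 of the young adult or mature adult replicates. Leaving out young adult replicate 3 and mature adult replicate 1 together lost the young adult call as well. This site lay 75.6 kb from the next gene, Jdp2, which encodes a repressor partner of Jun. At 59.0 kb a region of 993 to 1084 bp was called wider in mature adult after centring alone, by 0.35 (limma adjusted p = 0.0235). This call, too, was lost when any 1 of infant replicates 1 and 3 and mature adult replicates 1 and 3 was left out.

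**Figure D3:**
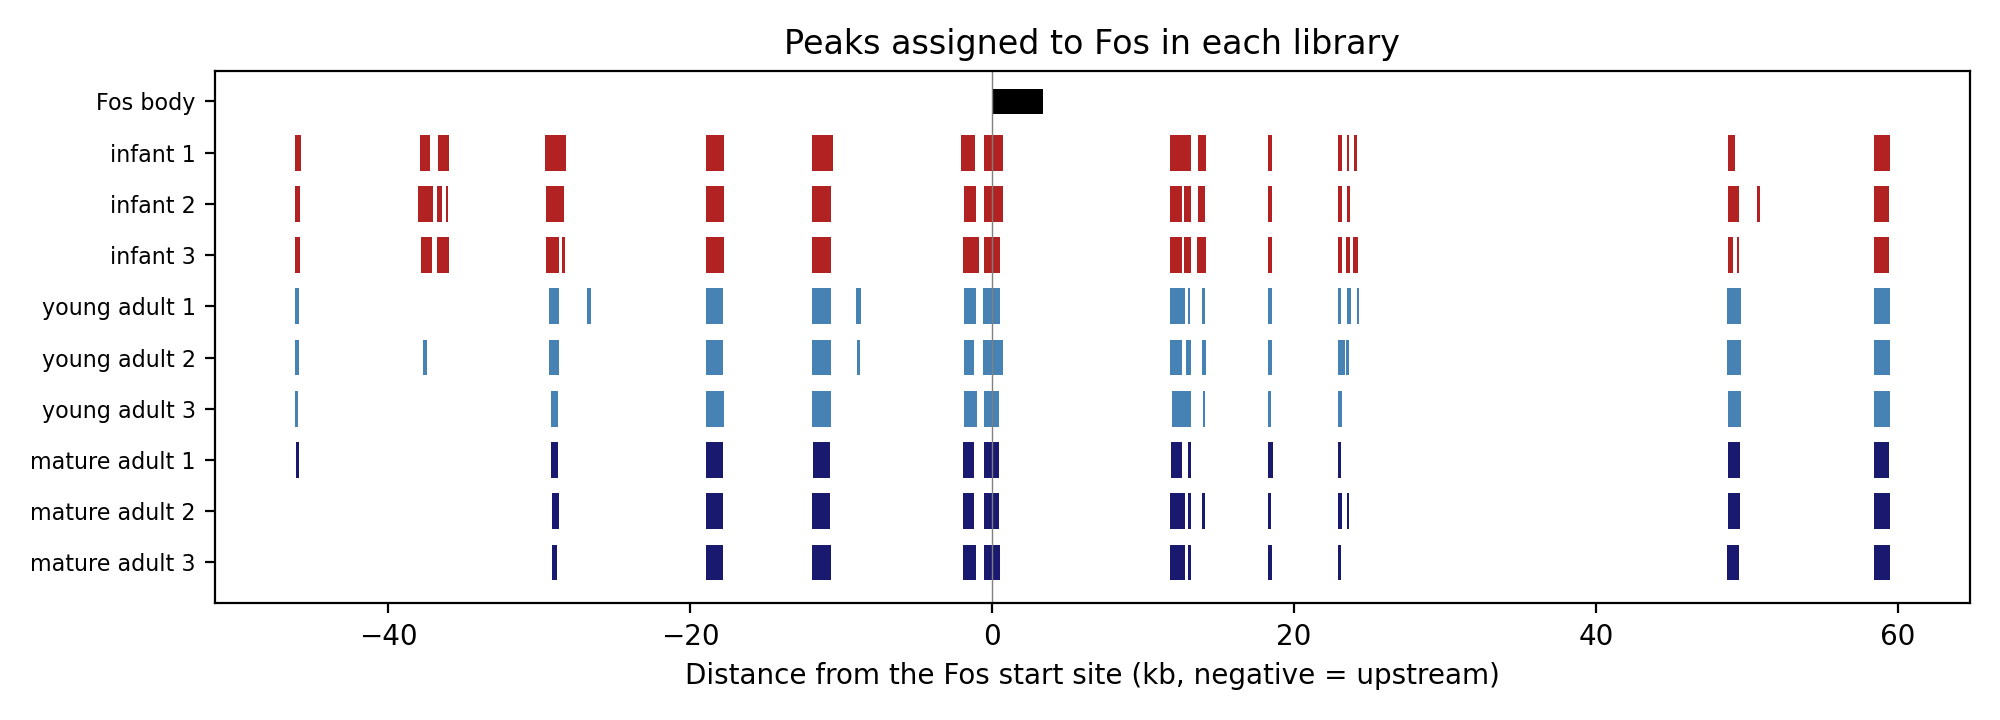
Peaks assigned to Fos in each of the 9 libraries (rows), drawn to scale against distance from the Fos start site (horizontal axis, kb, negative upstream), with the gene body in black. The pair of regions 36.4 and 37.5 kb upstream is filled in the 3 infant rows and nearly empty below, and the start-site peak is present in every row.

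Fosl2, a Fos protein without the strong activating domain of Fos, had the largest relative loss of peaks among the 8 genes. It lies at chr5:32136472-32157840 on the plus strand and had 8, 9 and 10 peaks in infant, 4, 6 and 4 in young adult and 5, 4 and 4 in mature adult libraries. No adult value reached the lowest infant value. As called the number fell by 0.98 on the log2 scale to mature adult (limma adjusted p = 0.00736) and by 0.90 to young adult (limma adjusted p = 0.0154). As a share of the list the changes were -0.47 and -0.50, with limma adjusted p of 0.0796 and 0.0741. Counted as merged regions, Fosl2 went from 8, 9 and 9 in infant to 4 in each mature adult library, and that fall passed on both scales, with -0.48 as a share (limma adjusted p = 0.0309) and -1.02 as called (limma adjusted p = 0.00287). Of all genes, 14.9% were called lower as a share and 32.6% lower as called in that count. The merged count was added after the data had been seen.

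The regions that Fosl2 lost were short. Inside the gene, the region 2.07 kb past the start (chr5:32138395-32138680) covered 268, 251 and 285 bp and that at 20.4 kb (chr5:32156565-32157082) covered 363, 517 and 258 bp in the infant libraries, and neither had a peak in an adult library. Upstream, regions at 3.26 and 2.61 kb were found in all infant libraries and, among adult libraries, in young adult replicate 2 alone. The broad region over the start (chr5:32134965-32136712) remained, with 1537 to 1733 bp covered in every library. The covered length at Fosl2 was 4.83 ± 0.107 kb in infant, 3.29 ± 0.328 kb in young adult and 3.14 ± 0.056 kb in mature adult libraries, and it fell by 0.55 as called in mature adult (limma adjusted p = 0.000549). As a share of the library's covered length the change was 0.0074 (limma adjusted p = 0.935).

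Fosb, another immediate-early Fos protein, lies at chr7:19302696-19310118 on the minus strand. It had 8, 9 and 7 peaks in infant, 8, 7 and 8 in young adult and 8 in each mature adult library. The groups overlapped, and the change as called was 0.01 in mature adult, while the share of the list rose by 0.52 (limma adjusted p = 0.00386). A region 16.7 kb upstream (chr7:19326114-19327544) had peaks of 1171, 1238 and 1148 bp in infant, 1417, 1419 and 1386 bp in young adult and 1413, 1361 and 1414 bp in mature adult libraries. All adult peaks were wider than all infant peaks.

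That region was the only one of the 41 AP-1 regions open in every library that was called wider in mature adult on both scales. The centred change was 0.53 (limma adjusted p = 0.00819) and the change without centring 0.24 (limma adjusted p = 0.0109), and it passed in 10 of 10 centred fits that left out libraries. In young adult the changes were 0.47 (limma adjusted p = 0.0203) and 0.25 (limma adjusted p = 0.0145), and the centred call held in 6 of 10 such fits, with limma adjusted p up to 0.074. Its distance to Fosb, 16.7 kb, was close to that to Ercc1, a DNA repair gene 17.2 kb away, so the assignment to Fosb is uncertain. A region 1.54 kb inside the gene was called wider after centring alone, by 0.44 (limma adjusted p = 0.0258). Its call was lost when any 1 of infant replicates 1 and 3 and mature adult replicates 1 and 3 was left out. The region 8.89 kb past the start, with peaks of 1284, 1097 and 1051 bp in infant and 773, 687 and 732 bp in mature adult libraries, was called narrower only without centring, with a change of -0.64 (limma adjusted p = 0.00611), and is named after its values were seen.

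Fosl1, a Fos protein itself induced by AP-1, lies at chr19:5447698-5455938, and overlaps Ccdc85b at its far end. It had 3, 3 and 2 peaks in infant, 4, 2 and 3 in young adult and 4 in each mature adult library. The mature adult values lay above the infant values, and the share of the list rose by 0.99 (limma adjusted p = 0.00878), with 0.52 as called (limma adjusted p = 0.138). The added intervals came from the splitting of 1 region. That region, at the gene's first end (chr19:5447364-5449063), covered 1604, 1441 and 1552 bp in infant libraries as 1 or 2 intervals and 1150, 1280 and 1142 bp in mature adult libraries as 3. Counted as merged regions, Fosl1 had 2 in each mature adult library and the share was not called, with a change of 0.31 (limma adjusted p = 0.141). The short region at the far end, of 234, 211 and 213 bp in infant and 158, 172 and 172 bp in mature adult libraries, was narrower only without centring, with a change of -0.39 (limma adjusted p = 0.0177), and is also named after its values were seen. The centre of this region lay within Ccdc85b as well, so its assignment to Fosl1 is uncertain.

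Atf3, a stress-induced partner of Jun proteins, lies at chr1:191170296-191183333 on the minus strand. It had 9, 7 and 6 peaks in infant and 5 in each of the 6 adult libraries. All infant values lay above the adult value. As called the number fell by 0.49 on the log2 scale in mature adult (limma adjusted p = 0.0284) and in young adult (limma adjusted p = 0.0417), and the changes of the share were 0.01 (limma adjusted p = 0.93) and -0.10 (limma adjusted p = 0.527). A region 59.0 kb upstream (chr1:191242115-191242459) covered 241, 204 and 324 bp in infant libraries and none in adult libraries. It was 64.5 kb from the next gene, Nenf. The start-site peak measured 1308 to 1541 bp over all libraries, and the covered length at Atf3 was 4.99 ± 0.626 kb in infant, 4.05 ± 0.13 kb in young adult and 3.95 ± 0.0679 kb in mature adult libraries.

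**Figure D4:**
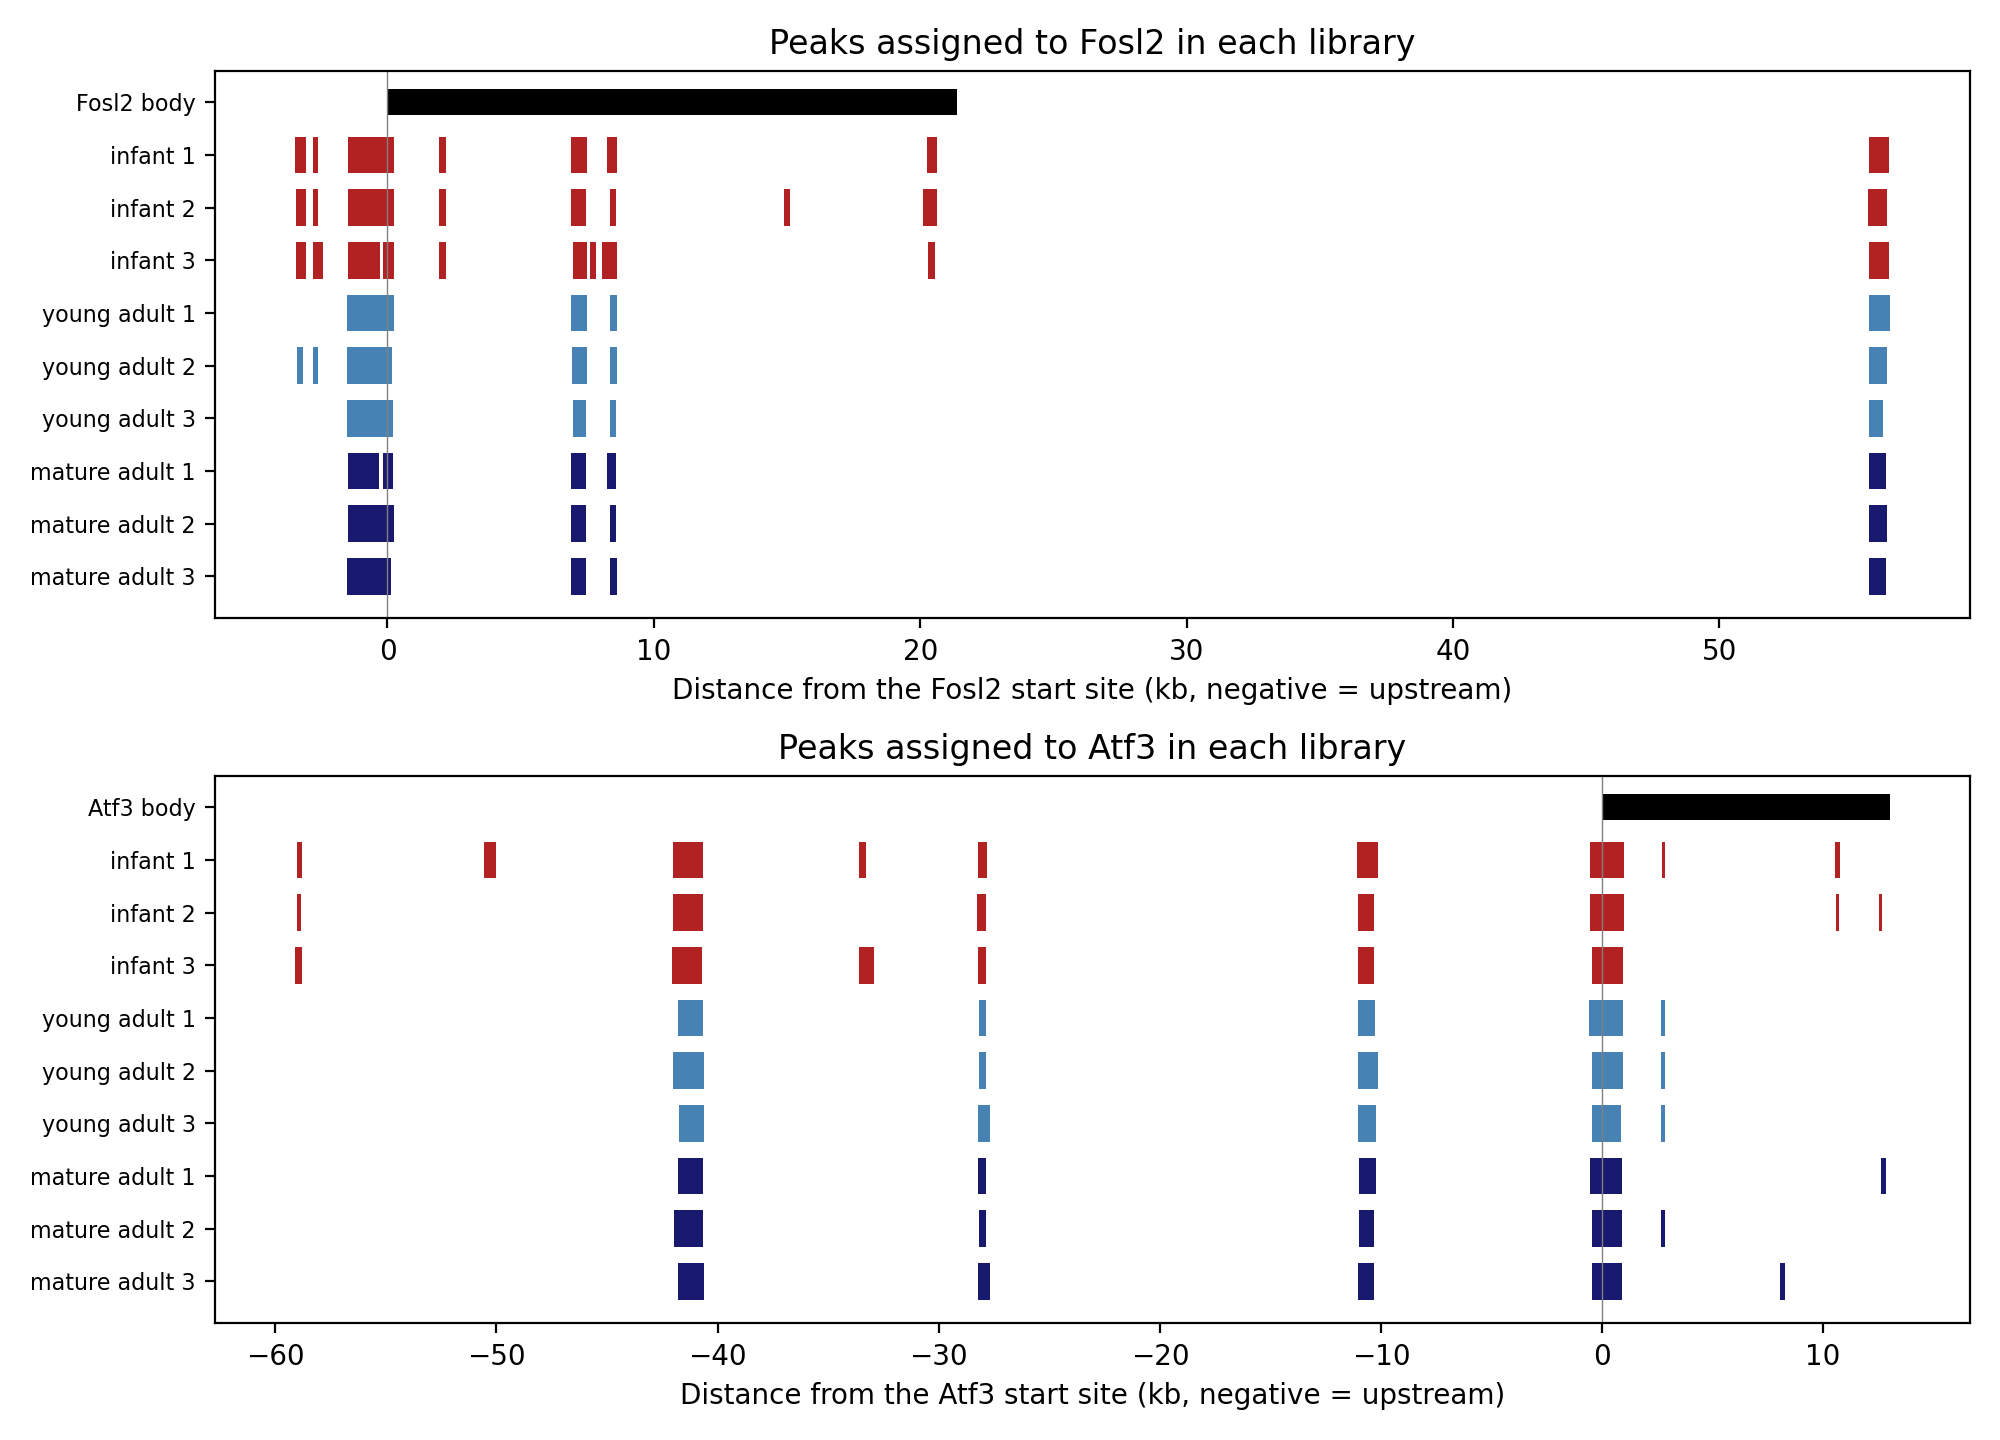
Peaks assigned to Fosl2 (upper panel) and Atf3 (lower panel) in each of the 9 libraries (rows), drawn to scale against distance from each gene's start site (horizontal axes, kb, negative upstream), with gene bodies in black. The infant rows hold more short peaks, while the wide peaks at the start sites appear in every row.

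Across the family, then, most regions were shared by all ages. Of the 76 regions, 41 (53.9%) had a peak in all 9 libraries, against 32.4% of all regions. The 4 infant-only regions (5.26%, against 9.70% of all regions) were the 2 inside Fosl2 and those upstream of Fos and Atf3. The other 29 were present in mixed sets of libraries. With an equal number of the widest peaks from every library, 0 of 67 AP-1 regions were infant-only and 5 (7.46%) adult-only, against 5.00% and 3.05% of all regions. These classes refer to the peaks kept, so adult-only can also mean that an infant peak was too narrow to be kept. Fosb, for example, had 2 adult-only regions in this count and 0 with all peaks. In another count a library had a region only where its peaks covered most of it. This gave 6 infant-only (7.89%) and 1 adult-only (1.32%), against 11.4% and 0.753% of all regions. Infant-only regions of this count can hold shorter adult peaks, as that 28.9 kb upstream of Fos does. Among the 41 shared regions, 9 were called between infant and mature adult after centring, 7 wider and 2 narrower, where 10.4% and 5.69% of the 41144 shared regions were called. Leaving out infant replicate 1 or 3, or mature adult replicate 1 or 3, each left 1 wider call, that 16.7 kb upstream of Fosb. Without infant replicate 2 there were 2 wider and 0 narrower calls. Without young adult replicate 1 or mature adult replicate 2 there were 4 wider and 1 narrower. On both scales 1 was wider and 2 narrower, with a background of 1.63% and 5.69%. Without centring 1 was wider and 4 were narrower, with a background of 1.63% and 14%. In young adult against infant 2 were called wider after centring (background 2.43%), those at Fos and Fosb described above. In mature adult against young adult 0 of 41 passed in limma and 0 had an unadjusted p under 0.05, with backgrounds of 0.216% and 8.65%.

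**Figure D5:**
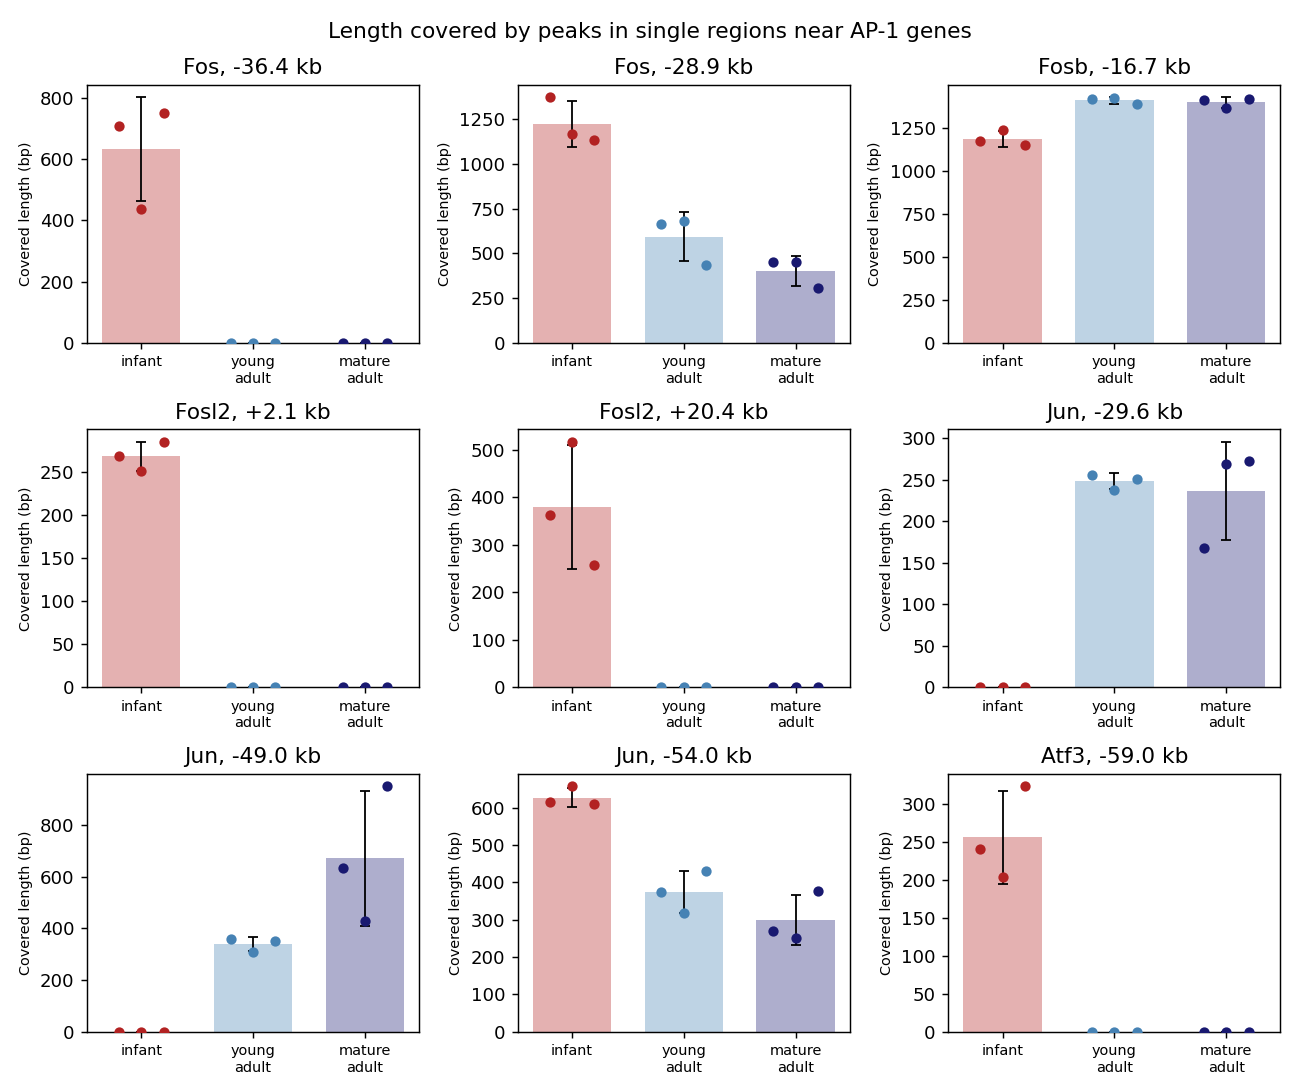
Length covered by peaks (vertical axis, bp) in 9 single regions near AP-1 genes, named by distance from the gene's start (negative upstream), in infant, young adult and mature adult libraries. Bars are means, error bars are SD, points are the 3 libraries of each age, and 0 means no peak; the Fosl2, Atf3 and Fos -36.4 kb regions are at 0 in adult libraries and 2 Jun regions at 0 in infant libraries.

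In covered length per gene, 5 of the 8 were higher in mature adult than in infant libraries as a share (Jun, Junb, Jund, Fosb and Atf3; background 34%) and 3 were lower as called (Fos, Fosl2 and Atf3; background 56.8%). Atf3 was thus called in opposite directions on the 2 scales, with 0.27 as a share (limma adjusted p = 0.0174) and -0.30 as called (limma adjusted p = 0.0173). In young adult 5 were higher as a share (Jun, Junb, Jund, Fos and Fosb; background 26%) and 3 lower as called (Fos, Fosl2 and Atf3; background 41.7%). None of the 8 was called between the adult ages (background 0.913%), and limma gave only Jun an unadjusted p under 0.05 as a share, as it did 14.1% of all genes.

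Genes that act with AP-1 were read on the same 2 scales, and those named here as changed passed on both. Of 30 tested kinases and factors upstream of AP-1, 12 were higher and 3 lower in mature adult as a share, and 0 higher and 10 lower as called, with a median of 0.17 as a share against 0.14 for all genes. For this and the following lists the shares over all genes were 30% higher and 13.8% lower as a share, and 1.44% higher and 29.4% lower as called, and nothing particular to a list is read from its counts. Map2k6, a kinase that activates p38, had 25, 24 and 26 peaks in infant, 15, 15 and 12 in young adult and 9, 12 and 10 in mature adult libraries, and its share fell by 0.71 (limma adjusted p = 0.0014). Map2k5, which activates the flow-responsive kinase ERK5, had 7, 9 and 7 in infant and 1 or 2 in every adult library, with a share lower by -1.22 (limma adjusted p = 0.00272). Mrtfa, a coactivator of serum response factor, went from 14, 16 and 16 to 8, 6 and 7, with a share lower by -0.56 (limma adjusted p = 0.0355). Mapk14, Elk3, Map2k3 and Mapk3 were higher as a share alone, and Mapk3 had 5 peaks in every library.

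Of 20 tested genes that limit AP-1 or MAP kinase activity, 7 were higher and 2 lower as a share, and 1 was higher and 10 lower as called, beside 30%, 13.8%, 1.44% and 29.4% of all genes. The median share change was 0.0011 against 0.14 for all genes. Spry2, an inhibitor of growth factor signalling to ERK, had 17, 16 and 18 peaks in infant, 10, 8 and 7 in young adult and 4, 5 and 6 in mature adult libraries. The ages did not overlap, and its share fell by 1.17 (limma adjusted p = 0.000607). Spred1, of a related family, went from 12, 12 and 14 in infant to 6, 5 and 6 in mature adult, with a share lower by -0.58 (limma adjusted p = 0.0248). Tsc22d3, the glucocorticoid-induced protein GILZ that binds Fos and Jun, rose on both scales, from 11, 10 and 10 in infant to 12, 14 and 13 in mature adult libraries (share 0.84, limma adjusted p = 0.000136; as called 0.32, limma adjusted p = 0.0243). Zfp36, Dusp16 and Zfp36l2 were higher as a share alone.

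Of 26 tested other basic leucine zipper partners, 7 were higher and 2 lower as a share, and 0 higher and 11 lower as called, with a median of 0.12 as a share, beside the same 30%, 13.8%, 1.44% and 29.4% of all genes. Creb1, the cyclic AMP response factor, went from 10, 11 and 12 peaks in infant to 6, 5 and 6 in mature adult libraries, with a share lower by -0.38 (limma adjusted p = 0.0385). Nfil3 went from 8, 9 and 8 to 3, 4 and 5, with a share lower by -0.49 (limma adjusted p = 0.0441). Cebpd, Maff, Mafk and Nfe2l2 were higher as a share alone, and Maff had 3 peaks in each infant and each mature adult library. Mafk had 3 peaks in each infant, 4, 4 and 5 in young adult and 3 in each mature adult library, and in young adult it was called higher on both scales.

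Of 18 tested genes known as AP-1 targets, 7 were higher and 2 lower as a share, and 0 higher and 4 lower as called, with a median of 0.17 as a share. The background was again 30%, 13.8%, 1.44% and 29.4% of all genes. Cd44, a hyaluronan receptor, had 18, 17 and 17 peaks in infant, 6, 10 and 8 in young adult and 8, 7 and 8 in mature adult libraries, and its share fell by 0.60 (limma adjusted p = 0.0213). Hbegf, a growth factor of the EGF family, went from 8, 6 and 7 in infant to 3 in each mature adult library, with a share lower by -0.60 (limma adjusted p = 0.00636). Icam1, Plau, Ier3 and Hmox1 were higher as a share alone, and Hmox1 had 5 peaks in every library.

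Genes whose scaled peak numbers followed those of Fos and Jun most closely over the 9 libraries were taken from 1500 genes with a mean of at least 10 peaks. For Fos they were Ago2 (Pearson r = 0.91), Pik3c2b (0.87), Kif13a (0.83) and Kazn (0.82). For Jun they were Ctdspl, Clic4, Jup and Irs1, each with r = 0.99. All points share the scaling of their library, so a gene with a steady number follows Jun closely, and the values are a description only. Clic4, for example, had 21, 21 and 22 peaks in infant and 19, 22 and 22 in mature adult libraries.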

How the data were processed

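ATAC-seq peak lists of 9 libraries were used, 3 per age. The deposited lists give chromosome, start and end of each peak in other units than reads, that is as genome positions in bp, per the file headers. They hold no height, score or read number, so depth is unknown and no detection limit could be given. Tools named in the submitters' processing notes are cutadapt, Bowtie2 and Picard, without versions, with the genome build mm10. Which program called the peaks, and with what threshold, is not given in the sources used here. Repeated rows, 31.5% to 39.5% of a list, were counted once, since the same interval filled up to 14 rows.

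Peaks went to 21887 protein-coding genes (RefSeq, GRCm38.p6, the build of mm10) by their centre, inside the gene or within 100 kb of the nearest gene end. Regions are unions of peaks that share at least 1 bp. The lists do not state how starts are counted, so printed positions carry an uncertainty of 1 bp. Numbers per gene and covered kb per gene, each scaled to the library's total, and log2 width of the widest peak in regions that all 9 libraries had, centred on the library median, were tested with limma 3.58.1 in R 4.3.3 (mean-variance trend, all 9 libraries in 1 fit). Benjamini-Hochberg adjustment ran over all genes that averaged 1 peak or more, or over all such regions, with a threshold of 0.05. Before taking log2, 0.5 was added to numbers and 0.5 kb to covered lengths, so that changes at low values come out too small. The procedure was tested on simulated data. Python 3.11.15 did the rest.

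The members and lists were chosen with earlier results of these data known. Of each list the genes past the threshold between infant and mature adult were named, at most 4 in each direction by size of change. Member regions named were those at the gene start, those of 1 age class and those past the width threshold. Alternatives were other scalings, windows, filters and added values, equal numbers of widest peaks, rows as deposited, merged regions, a replicate block and leaving out libraries.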

Additional observations from a re-analysis of the deposited data

How the results depend on the processing

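Among the single AP-1 genes and regions, direction depended on the scale, because adult lists were shorter. Unscaled covered length turned negative in young adult for Fos (-0.31), Fosb (-0.092), Jun (-0.072), Junb (-0.038), Jund (-0.019) and Atf3 (-0.27), and in mature adult for Fos (-0.53), Fosb (-0.12), Fosl2 (-0.55), Jun (-0.031), Junb (-0.0083), Jund (-0.057) and Atf3 (-0.30), with 3 AP-1 genes called in each comparison in place of 5. Unscaled peak numbers turned negative for Fosb in young adult (-0.053, and -0.084 when the 2 adult libraries with the narrowest peaks, young adult replicate 3 and mature adult replicate 1, were left out) and Atf3 in mature adult (-0.49, also as merged regions), and as merged regions for Fosb (-0.052) and Fosl1 (-0.16). As a share of the whole list, Fos in mature adult was higher when peaks were limited to 10 kb (0.60, limma adjusted p = 0.042). It was also higher when they were taken from within 20 kb (0.46, limma adjusted p = 0.0108). Both settings drop its upstream regions beyond those distances. The Jun region 20.8 kb downstream was at -0.025 without centring.

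Called AP-1 genes by peak number in young adult went from 3 to 5 with every peak within 20 kb and to 0 unscaled without those 2 libraries, and in mature adult from 4 to 2 with equal numbers of the widest peaks. Called AP-1 regions by width in mature adult went from 9 to 5 without centring, and in young adult from 2 to 4 with all covered bp and to 1 without those 2 libraries. Equal numbers of widest peaks left 0 infant-only and 5 adult-only AP-1 regions in place of 4 and 2, judged by the peaks kept. Asking for peaks over most of the region gave 6 infant-only and 1 adult-only, where the other age could still hold shorter peaks. Over all genes, 5051 were called by number in young adult, 2691 unscaled, 2355 with rows as deposited, 1393 with equal numbers, 2488 unscaled without those 2 libraries and 3117 as unscaled merged regions. In mature adult against infant the 6337 became 2268 with equal numbers and 4033 unscaled without those 2 libraries. Between the adult ages 122 by number became 572 without those 2 libraries and 490 also unscaled, 132 by covered length became 70 unscaled and 759 without them, and 89 regions by width became 458 without them and 52 with all covered bp. The cause of these moves was not tested.

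With the replicate block, the calls between the adult ages were 65 genes by number, 50 by covered length and 24 regions by width. The block gave 956 regions by width in young adult against 1818 and 3245 in mature adult against 6616, with 1 and 3 AP-1 regions. In young adult the 2 wider AP-1 calls were lost, at 49.2 kb from Fos (limma adjusted p = 0.0761) and 16.7 kb from Fosb (limma adjusted p = 0.0598), and 1 narrower call was made, 28.9 kb from Fos (limma adjusted p = 0.0255). In mature adult 1 wider and 2 narrower calls were made, against 7 and 2 without the block. The labels do not say whether same-numbered libraries were paired. Their deviations from the age means correlated between -0.167 and 0.166 for numbers, -0.172 and 0.206 for covered length and -0.0503 and 0.135 for width. A library correlated best with its own number in 9, 5 and 5 of 18 comparisons. With so few libraries an age, such weak correlations cannot settle whether the libraries were paired.

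Leaving out each library in turn gave 4396 to 5437, 5307 to 6881 and 98 to 424 genes by number (young adult against infant, mature adult against infant, mature adult against young adult), with 2 to 5, 4 to 5 and 0 AP-1 genes. Covered length gave 3592 to 6066, 6015 to 8354 and 38 to 788 genes, with 3 to 5, 4 to 5 and 0 AP-1 genes. Width gave 770 to 1927, 1806 to 9351 and 41 to 348 regions, with 0 to 2, 1 to 12 and 0 AP-1 regions. AP-1 regions called by width in mature adult numbered 1 without infant replicate 1, 2 without infant replicate 2, infant replicate 3 or mature adult replicate 1, 3 without mature adult replicate 3, and 5 without mature adult replicate 2 or young adult replicate 1. AP-1 genes called in young adult numbered 5 by number without young adult replicate 2, and 3 by covered length without infant replicate 1 or young adult replicate 1. Counts of called widths are therefore loosely fixed by 3 libraries an age, and unknown depth limits every statement on absent peaks.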
